A study of Mus musculus with 4 samples.

Results

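The 31 genes described here encode enzymes of the tricarboxylic acid (TCA) cycle and of glutaminolysis, the route by which glutamine carbon enters that cycle. They were taken by symbol from a fixed list, and all 31 were found among the 31054 genes of the files. The lungs came from male C57BL/6 mice, 19 months old when treatment began, that were given BPTES or its vehicle DMSO for 1 month. BPTES is a small molecule that inhibits the breakdown of glutamine. Each group had 2 libraries, and for each of them 20000 sorted CD45- cells were combined with 9000 CD45+ cells of that tissue, so that the sort sets the balance of immune and other cells. No young or untreated mice are among these samples, and aged males of 1 strain are all that the comparison covers. The labels do not say whether the libraries of a group came from different mice, nor by which route the compound was given.

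The TCA cycle runs in the mitochondrial matrix. Pyruvate dehydrogenase feeds it acetyl-CoA, citrate synthase joins that to oxaloacetate, and successive dehydrogenases pass electrons to NAD or to the respiratory chain. Glutamine is first turned into glutamate, and glutamate dehydrogenase or a transaminase turns glutamate into 2-oxoglutarate, a cycle intermediate. Several steps have a cytosolic and a mitochondrial enzyme from different genes, which lets cells export citrate or malate and make NADPH outside the mitochondrion.

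For Me1, Me3, Idh1 and Idh2 the RefSeq sequence just before 1 start site of each gene is shown. Me1 and Idh1 each matched 2 RefSeq promoter windows, of which 1 is shown and searched. The part of these stretches in the enzyme choices was not tested. The choice of these 4 genes is not a ranking. The highest level of Idh2 was 3.90 times its median class, against 28.7 times for Gpt and 10.6 times for Got1. Gpt, Me2, Idh3a and Sdhc had no RefSeq promoter window. Me1 lies at chr9:86581371-86695953 on the minus strand, Me3 at chr7:89632392-89854359 on the plus strand, Idh1 at chr1:65158616-65186500 and Idh2 at chr7:80094846-80115392, both on the minus strand, in build GRCm38. Each stretch below begins up to 250 bases before the RefSeq start site, runs 5′ to 3′ on the gene's own strand, and stops where an annotated exon of that gene begins. Capitals mark the GC box GGGCGG on either strand, the core of a binding site for Sp1-type factors.
Me1, chr9:86695954-86696164, outside the gene: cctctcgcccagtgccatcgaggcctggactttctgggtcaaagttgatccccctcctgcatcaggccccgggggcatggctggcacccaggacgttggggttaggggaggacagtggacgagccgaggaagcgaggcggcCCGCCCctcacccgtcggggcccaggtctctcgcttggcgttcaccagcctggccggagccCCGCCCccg
Me3, chr7:89632570-89632702, in an intron of the longer annotated transcript: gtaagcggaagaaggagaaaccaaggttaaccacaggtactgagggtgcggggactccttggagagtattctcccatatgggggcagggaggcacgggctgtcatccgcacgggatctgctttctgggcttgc
Idh1, chr1:65186501-65186729, outside the gene: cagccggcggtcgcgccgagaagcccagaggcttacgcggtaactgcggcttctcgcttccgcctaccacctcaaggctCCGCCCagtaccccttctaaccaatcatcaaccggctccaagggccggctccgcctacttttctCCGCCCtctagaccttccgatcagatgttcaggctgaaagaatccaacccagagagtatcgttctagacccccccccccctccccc
Idh2, chr7:80115393-80115600, outside the gene: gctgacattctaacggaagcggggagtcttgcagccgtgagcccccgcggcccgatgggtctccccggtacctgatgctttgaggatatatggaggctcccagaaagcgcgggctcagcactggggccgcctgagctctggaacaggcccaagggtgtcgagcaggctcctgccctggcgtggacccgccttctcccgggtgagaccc
The Me1 stretch of 211 bases held 2 GC boxes, and the Idh1 stretch of 229 bases held 2. Neither the Me3 stretch of 133 bases nor the Idh2 stretch of 208 bases held one. Over the same positions, 26.9% of 32851 RefSeq promoter windows held a GC box for the Me1 length, 29.7% for the Idh1 length, 14.6% for the Me3 length and 26.2% for the Idh2 length. Searches on both strands for the antioxidant response element core TGACNNNGC, the ETS factor motif CCGGAAG, the TATA box TATAAA and the E-box CACGTG gave no match in these 4 stretches; the share of windows of the Me1 length with a match was 8.25%, 4.54%, 9.60% and 4.70% for these in turn. No motif searched overlapped another in these stretches.

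The 4 libraries held between 260346570 and 342107092 UMIs over 16440 to 21986 barcodes, and 63895 cells were kept after filters. Median depth was 13953 to 15787 UMIs per kept cell, and median mitochondrial share 1.37% to 1.501%. Any 2 libraries shared 75 to 121 barcodes, at most 0.680% of the smaller library. Cells were clustered and clusters were named from marker genes; 22.5% of cells stayed unnamed. Levels are given for the 22 classes in which no library had under 20 cells, and BPTES was tested in the 12 largest, where no library had under 50. A level is the count per 1000000 UMIs (CPM) of the summed cells of 1 class in 1 library, after scaling by library composition. The kit tags each transcript once at its 3′ end, so levels of different genes were compared without a division by length. Library values are listed in the order BPTES replicate 1, BPTES replicate 2, DMSO replicate 1, DMSO replicate 2, and means are over all 4 with their SD (n = 4) unless a group is named. Because the classes come from clustering the same cells, differences between classes are described and not tested; of the 31 genes, 1 (Me3) was among the 2000 variable genes used for clustering.

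The summed level of the enzymes differed widely between classes. Classical monocyte-like cells stood highest with 2493 ± 103 CPM (SD, n = 4) over the 31 genes, followed by ciliated-like cells with 2312 ± 48.1 and alveolar macrophage-like cells with 2281 ± 71.9. Their library ranges overlapped neither with alveolar fibroblast-like cells at 1373 ± 43.4 nor with neutrophil-like cells at 855 ± 35.5. Ciliated cells, which beat their cilia with ATP, had the highest level of 9 of the 31 genes, and classical monocyte-like cells that of 3. The classical monocyte-like sum held 622 CPM of Glud1 alone, whose median class had 193. Neutrophils, which rely largely on glycolysis, had the lowest level of 17 of the 31.

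**Figure D1:**
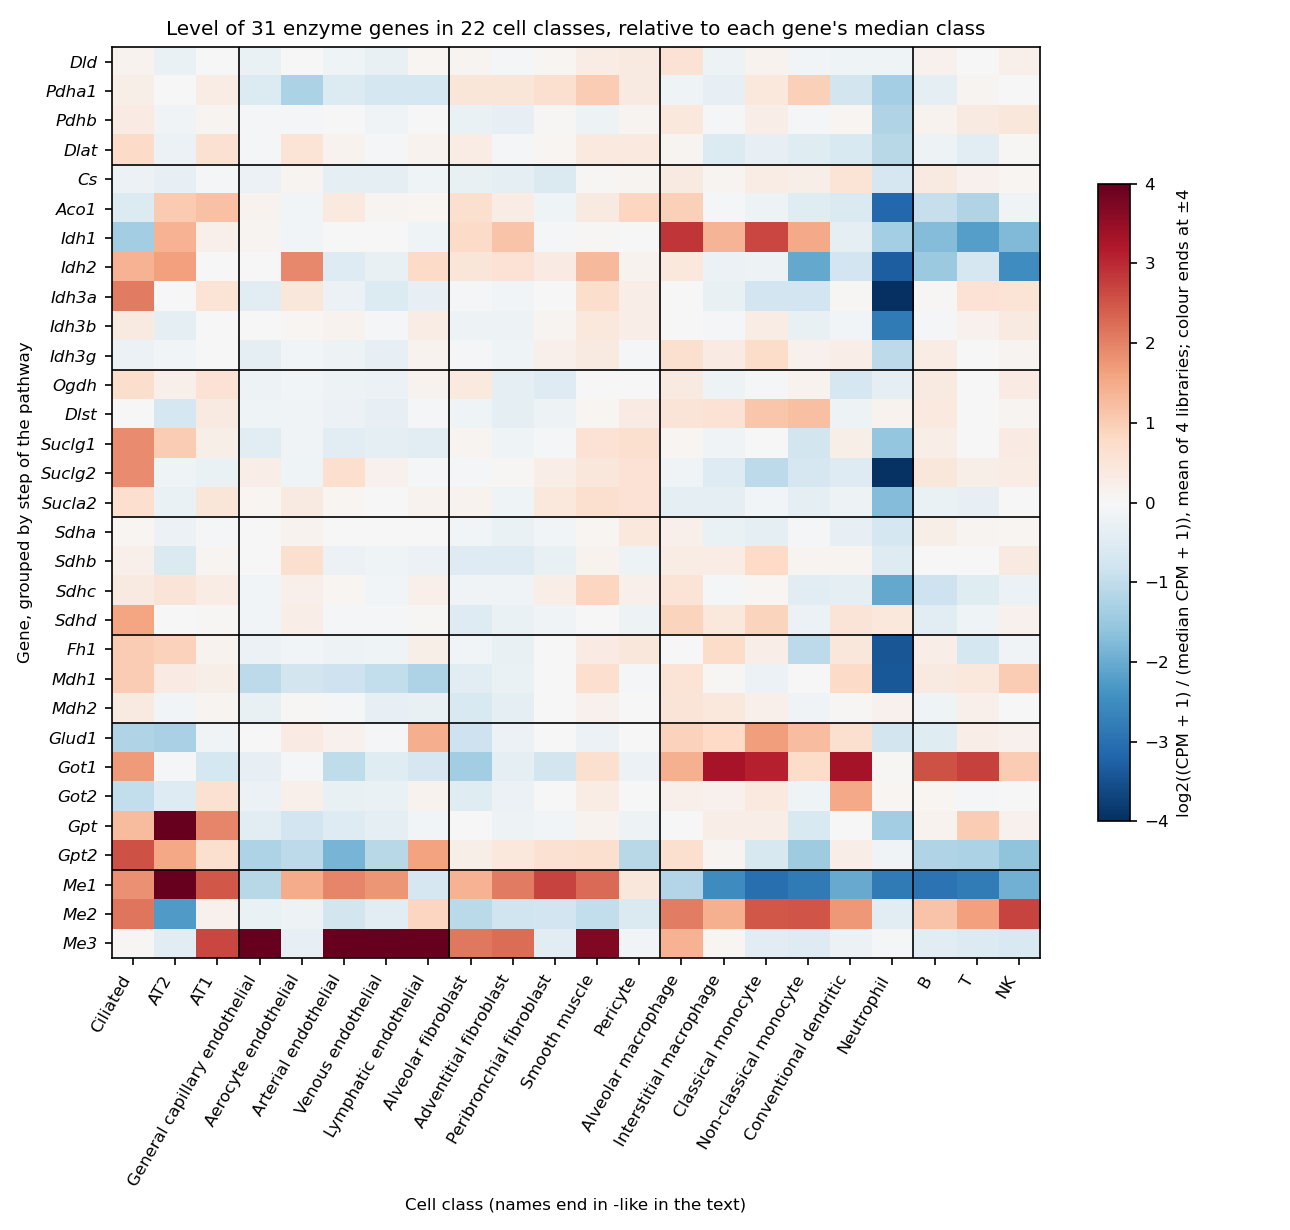
Colour shows the log2 ratio of each gene's mean CPM plus 1 over 4 libraries to that gene's median over 22 classes, with genes in rows by pathway step and classes in columns. The neutrophil column is blue for most genes, while the malic enzymes Me1, Me2 and Me3 and the aspartate transaminase Got1 run from blue to red between columns.

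The pyruvate dehydrogenase complex is the gate from glycolysis into the cycle. Its E1 alpha subunit Pdha1 was highest in smooth muscle-like cells, at 98.9, 131, 80.4 and 96.1 CPM. The E1 beta subunit Pdhb was highest in NK-like cells, at 65.1, 67.1, 66.5 and 63.1 CPM. The E2 core subunit Dlat was highest in ciliated-like cells, at 59.7, 47.4, 51.9 and 50.7 CPM. These 3 subunits of 1 complex thus peaked in 3 different classes, and the library ranges of their top 2 classes overlapped for each. Dld, the E3 subunit that this complex shares with 2-oxoglutarate dehydrogenase, was highest in alveolar macrophage-like cells at 57.1, 71.6, 66.2 and 59.3 CPM. It was also the flattest of the 31 genes between classes, with a highest mean 1.88 times its lowest, the 33.8 ± 2.79 CPM of venous endothelial-like cells. Pdha1, Pdhb and Dlat were all lowest in neutrophil-like cells, at 18.8 ± 2.43, 19.8 ± 3.68 and 13.7 ± 4.06 CPM.

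Citrate is made and then turned into 2-oxoglutarate by the next enzymes of the list. Citrate synthase, Cs, which condenses acetyl-CoA with oxaloacetate, was highest in conventional dendritic-like cells at 76.9, 76.7, 88.0 and 76.8 CPM. Aco1, the cytosolic aconitase that doubles as an iron-regulatory RNA-binding protein, was highest in AT1-like cells at 50.4, 55.2, 55.9 and 33.8 CPM. AT2-like cells followed with 44.3 ± 1.12 CPM, within the AT1-like range. Both genes were lowest in neutrophil-like cells, Cs at 34.0 ± 8.79 and Aco1 at 1.49 ± 0.681 CPM.

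Idh1, the cytosolic and peroxisomal isocitrate dehydrogenase that makes NADPH, was highest in alveolar macrophage-like and classical monocyte-like cells. It reached 191, 174, 182 and 159 CPM in alveolar macrophage-like cells and 157, 170.3, 149.5 and 152 CPM in classical monocyte-like cells. The 2 ranges overlap, and the next class, non-classical monocyte-like cells, was well below both at 69.9 ± 8.44 CPM. AT2-like cells at 63.1 ± 5.50 and interstitial macrophage-like cells at 62.4 ± 19.3 CPM overlapped that range. T-like cells had the lowest level, 4.34 ± 1.33 CPM. Idh2, its mitochondrial counterpart, was instead highest in aerocyte endothelial-like cells, the large capillary cells of the alveolar wall, at 123, 123, 121 and 116 CPM. AT2-like cells, the surfactant-making epithelium, came next at 95.5, 105, 99.8 and 93.4 CPM, below every aerocyte library. Neutrophil-like cells had 2.27 ± 0.735 CPM of Idh2.

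The NAD-dependent isocitrate dehydrogenase, the enzyme of the cycle proper, is a heteromer of the catalytic subunit Idh3a with Idh3b and Idh3g. Idh3a was highest in ciliated-like cells at 119, 102, 109 and 112 CPM, far above smooth muscle-like cells at 41.5 ± 5.38. Idh3b was highest in smooth muscle-like cells at 69.3, 88.0, 63.1 and 73.7 CPM, and Idh3g in classical monocyte-like cells at 86.5, 78.5, 93.7 and 82.1 CPM. In neutrophil-like cells the subunits parted: Idh3g had 24.3 ± 5.11 CPM, Idh3b had 6.85 ± 2.00, and Idh3a had 13 UMIs over the 4 libraries together, 0.628 ± 0.266 CPM. Idh3a made up 2.12% of the UMIs of the 3 subunits there against 49.5% in ciliated-like cells.

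The 2-oxoglutarate dehydrogenase complex and succinyl-CoA ligase carry carbon from 2-oxoglutarate to succinate. Ogdh, the E1 subunit, was highest in ciliated-like cells at 172, 173, 162 and 162 CPM and lowest in conventional dendritic-like cells at 63.9 ± 8.88. Dlst, the E2 subunit, was highest in non-classical monocyte-like cells at 137, 119, 118 and 125 CPM and lowest in AT2-like cells at 33.1 ± 3.58. The classes at the ends thus differed between the E1 and E2 subunits of 1 complex. Suclg1, the alpha subunit common to both forms of succinyl-CoA ligase, was highest in ciliated-like cells at 191, 173, 179 and 163 CPM. Suclg2, the beta subunit of the GTP-forming enzyme, was also highest there at 158, 163, 205 and 165 CPM. Sucla2, the beta subunit of the ATP-forming enzyme, reached 68.6, 66.8, 64.9 and 65.2 CPM in the same cells. The class after ciliated-like had 95.8 ± 4.52 CPM of Suclg1 (AT2-like) and 73.6 ± 4.56 of Suclg2 (arterial endothelial-like), so these 2 genes were set apart in ciliated-like cells. Sucla2 in smooth muscle-like cells, 64.3 ± 10.4 CPM, overlapped the ciliated-like range. All 3 ligase genes were lowest in neutrophil-like cells, at 15.4 ± 1.74, 2.02 ± 0.707 and 11.6 ± 1.06 CPM.

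Succinate dehydrogenase is both a cycle enzyme and complex II of the respiratory chain. Its flavoprotein subunit Sdha was highest in pericyte-like cells at 132, 103, 134 and 126 CPM. The iron-sulfur subunit Sdhb was highest in classical monocyte-like cells at 144, 135, 159.9 and 159 CPM. Of the membrane anchors, Sdhc was highest in smooth muscle-like cells, where the libraries were spread over 96.8, 144, 70.5 and 96.8 CPM. Sdhd was highest in ciliated-like cells at 129, 141, 133 and 119.8 CPM, with no overlap with alveolar macrophage-like cells at 81.9 ± 6.38. The 4 highest means thus fell in 4 different classes, but for Sdha, Sdhb and Sdhc the library ranges of the top 2 classes overlapped, and with doublets kept the highest class of Sdha and of Sdhc was another. Sdha and Sdhc were lowest in neutrophil-like cells at 56.3 ± 6.58 and 12.8 ± 0.420 CPM, Sdhb in AT2-like cells at 58.0 ± 2.25, and Sdhd in alveolar fibroblast-like cells at 30.2 ± 2.32.

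Fh1, fumarase, and the malate dehydrogenases close the cycle. Fh1 was highest in ciliated-like cells at 55.5, 63.6, 47.9 and 45.8 CPM and in AT2-like cells at 54.0, 58.4, 44.2 and 42.3, ranges that overlap. Mdh1, the cytosolic malate dehydrogenase of the malate-aspartate shuttle, was highest in NK-like cells at 164, 172, 148 and 146 CPM and nearly as high in ciliated-like cells at 156 ± 4.59. Mdh2, the mitochondrial enzyme, was highest in alveolar macrophage-like cells at 156, 159, 164 and 146 CPM. Neutrophil-like cells had 1.46 ± 0.526 CPM of Fh1 and 6.46 ± 0.689 of Mdh1, yet their Mdh2 level was above the median class. The lowest Mdh2 level was that of alveolar fibroblast-like cells, 71.5 ± 8.03 CPM.

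Among the enzymes that turn glutamate into 2-oxoglutarate, glutamate dehydrogenase, Glud1, had the highest level of all 31 genes. It reached 593, 601, 696 and 599 CPM in classical monocyte-like cells, then 533, 492, 553 and 529.7 CPM in lymphatic endothelial-like cells, which lie below every classical monocyte library. AT2-like cells had the least, 77.8 ± 4.23 CPM, an 7.997-fold range between classes. Got1, the cytosolic aspartate transaminase, was highest in conventional dendritic-like cells at 143, 140.0, 167 and 128 CPM and in interstitial macrophage-like cells at 148, 154, 144 and 129.5 CPM. Those 2 ranges overlap, and alveolar fibroblast-like cells had 4.58 ± 0.284 CPM. Got2, the mitochondrial transaminase, was highest in conventional dendritic-like cells too, at 148, 131, 135 and 146 CPM, and its next class, AT1-like cells, had 75.3 ± 10.6.

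In the sum of all kept cells, the alanine transaminases were the genes of lowest level in the list, with 4.09 CPM of Gpt and 2.69 of Gpt2. Gpt, the cytosolic form, was highest in AT2-like cells at 54.8, 48.8, 45.3 and 50.9 CPM. No other class came near: AT1-like cells had 9.64 ± 4.88 CPM, and neutrophil-like cells had 1 UMI over 4 libraries. Gpt2, the mitochondrial form, was highest in ciliated-like cells at 17.3, 21.8, 23.4 and 18.4 CPM, then in lymphatic endothelial-like cells at 9.95 ± 2.00. No Gpt2 UMI was found in the 409 arterial endothelial-like cells.

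The malic enzymes, which turn malate into pyruvate, had the widest range of isozyme shares between classes. Me1 made up from 0.339% to 98.1% of their UMIs. Me1, the cytosolic NADP-dependent enzyme that supplies NADPH for fatty acid synthesis, was highest in AT2-like cells at 247, 258, 219 and 242 CPM. Peribronchial fibroblast-like cells followed at 77.1 ± 6.71 CPM, and classical monocyte-like cells had 0.487 ± 0.241. Me2, the mitochondrial NAD-dependent enzyme, was highest in NK-like cells at 159, 155, 159.9 and 185 CPM, followed by non-classical monocyte-like cells at 144 ± 7.88 and classical monocyte-like cells at 142 ± 3.80. AT2-like cells had the least Me2, 4.31 ± 0.422 CPM. Over the 22 classes the ranks of Me1 and Me2 ran opposite, with a Spearman correlation of -0.68, the lowest of all 465 gene pairs; the points share libraries and scaling.

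Me3, the mitochondrial NADP-dependent enzyme, was an endothelial gene. Venous endothelial-like cells had 149, 129, 169.7 and 142 CPM. Lymphatic endothelial-like cells followed at 84.3, 82.9, 94.1 and 78.4 CPM, and general capillary-like and arterial-like cells had 46.0 ± 15.2 and 33.4 ± 15.3. Aerocyte endothelial-like cells, the other capillary type, had 0.552 ± 0.381 CPM, and NK-like cells had 3 UMIs in all. AT2-like cells therefore used Me1 for 98.1 ± 0.391% of their malic enzyme UMIs, classical monocyte-like cells used Me2 for 99.4 ± 0.192%, and venous endothelial-like cells used Me3 for 71.9 ± 4.52%.

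**Figure D2:**
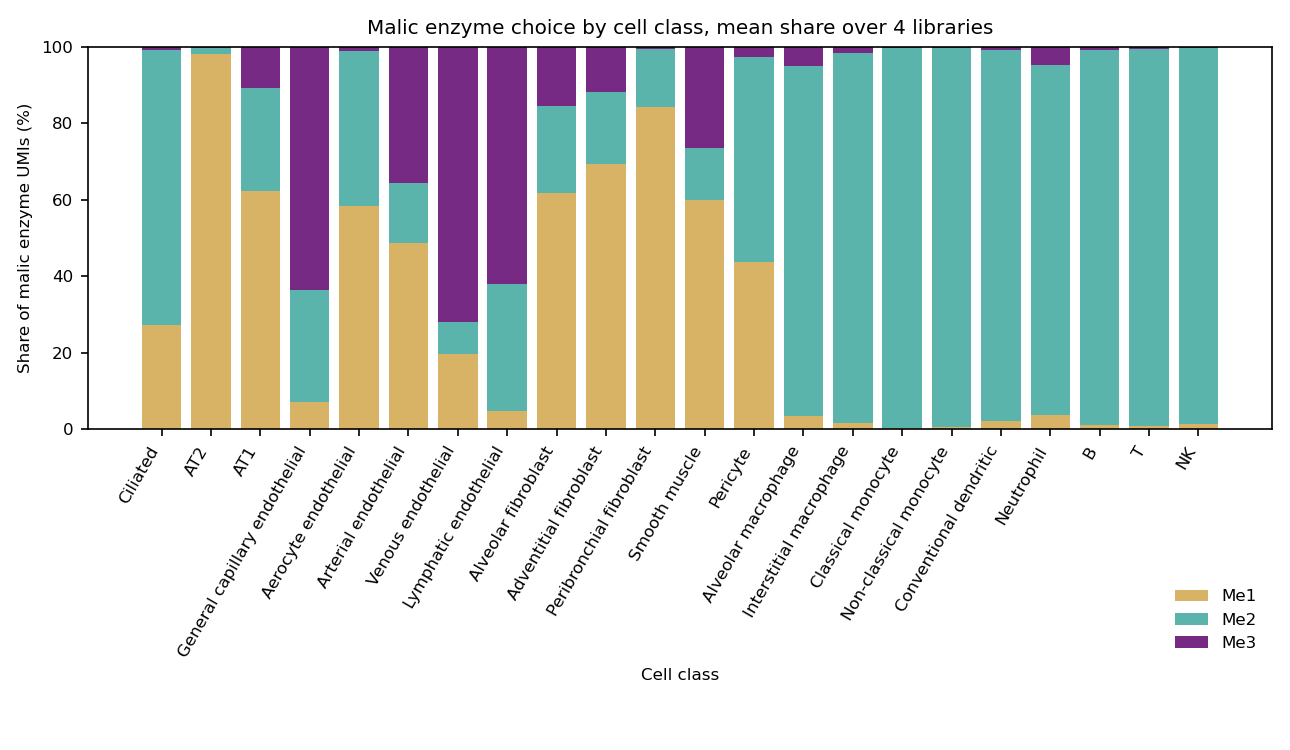
Bars give the mean share over 4 libraries of Me1, Me2 and Me3 in the malic enzyme UMIs of each of 22 classes. Me1 fills the AT2 bar, Me2 fills the bars of monocytes and lymphocytes, and Me3 is the larger part of the venous, lymphatic and general capillary bars.

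The other enzyme choices were also tied to class. Idh2 made up 91.1 ± 3.24% of Idh1 plus Idh2 UMIs in ciliated-like cells and 8.73 ± 0.768% in non-classical monocyte-like cells. Got2 made up 90.1 ± 4.53% of aspartate transaminase UMIs in AT1-like cells but 27.4 ± 1.99% in interstitial macrophage-like cells, where the cytosolic form prevailed. Mdh2 made up 94.9 ± 1.05% of malate dehydrogenase UMIs in neutrophil-like cells and 41.0 ± 1.34% in NK-like cells. These 3 pairs all contrast a mitochondrial with a cytosolic enzyme, and a different class held the mitochondrial end of each. Within the mitochondrion, Suclg2 made up 72.1 ± 2.69% of the succinyl-CoA ligase beta subunits in ciliated-like cells against 14.8 ± 5.28% in neutrophil-like cells. Gpt2 made up 86.5 ± 3.19% of alanine transaminase UMIs in lymphatic endothelial-like cells and 16.3 ± 2.503% in AT2-like cells, over the 9 classes with at least 20 UMIs of the pair in each library.

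Subunits of 1 complex did not follow each other closely over the classes. The median Spearman correlation was 0.13 for the 3 pairs among Pdha1, Pdhb and Dlat, 0.21 for those of Idh3, 0.24 for the 6 of succinate dehydrogenase, 0.38 for the 3 of succinyl-CoA ligase and 0.48 for the 3 of 2-oxoglutarate dehydrogenase. All 465 pairs of the 31 genes had a median of 0.21. The highest was 0.87, between Sucla2 and Dlat, which belong to different complexes. These values are over 22 classes and describe these libraries only.

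BPTES against DMSO was tested per class with edgeR's quasi-likelihood test, with adjustment over all genes tested in that class and 2 libraries against 2. No gene of the list was called at an adjusted p under 0.05: 0 of 349 gene and class pairs, where 0.181% of all pairs of genes and classes were called. At an unadjusted p under 0.05 there were 30 pairs, 8.596%, where 13.2% of all pairs passed. DESeq2 called 3 pairs, Me3 in alveolar fibroblast-like and general capillary-like cells and Idh1 in interstitial macrophage-like cells, where it called 1.83% of all pairs it tested. Of the 372 possible pairs, 23 did not pass the filter on low counts, all but 3 of them pairs of Gpt, Gpt2, Me1 or Me3. In 325 pairs, 93.1%, the 95% interval of the difference lay within 1 log2 unit of 0. The class medians of the log2 fold change were at most 0.16 in size. These p-values measure the spread between 2 libraries a group, which may be technical.

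**Figure D3:**
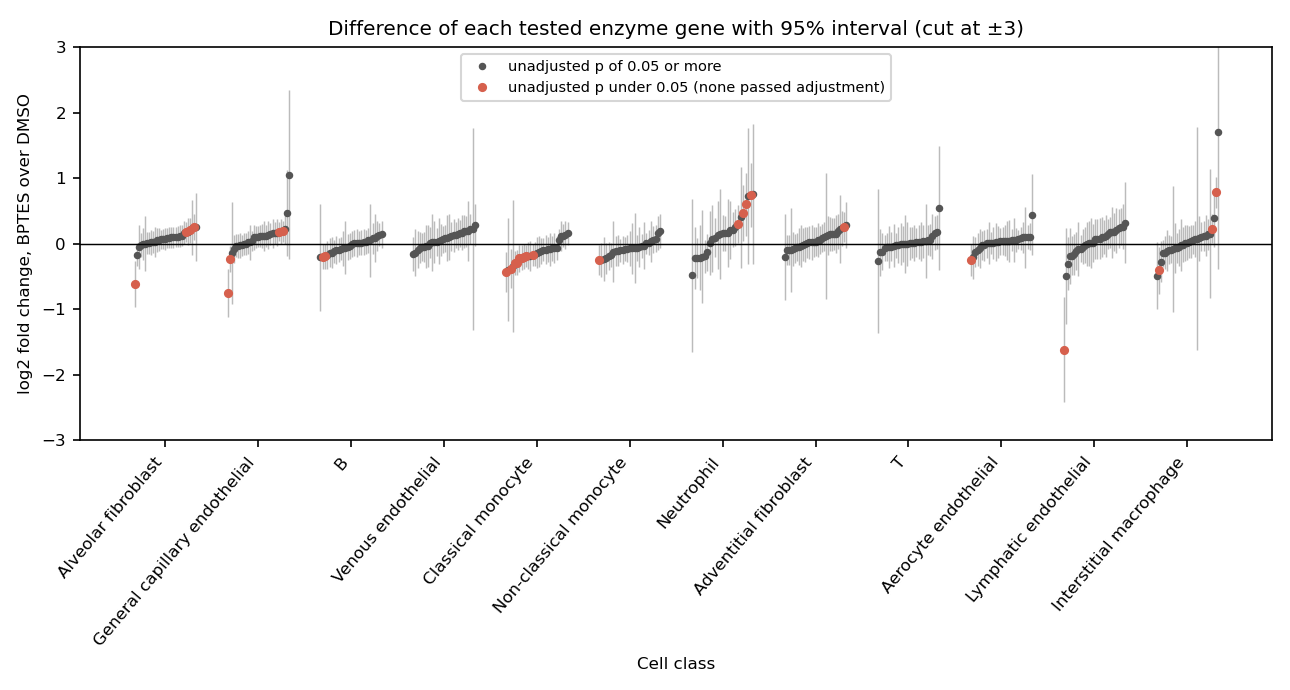
Points give the log2 fold change of BPTES over DMSO for each tested gene of the list in 12 classes, and bars its 95% interval, cut at 3 log2 units. Most points lie close to 0; the widest intervals belong to genes with few UMIs, and the classical monocyte points lie mostly below 0.

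The shares of enzyme pairs were also compared between the groups, as a description without a test, and only the class with the largest difference without overlap is given for each. Among all gene and class pairs tested for their levels, the groups did not overlap in 45.4%, so a class without overlap is common. The classes without overlap were 11 of 22 for Got1 (5 of them higher with BPTES), 13 of 22 for Mdh2 (10 higher), 3 of 9 for Gpt (2 higher), 11 of 22 for Suclg2 (2 higher) and 6 of 22 for Idh3b (4 higher). Got1 made up 27.3%, 25.4%, 15.5% and 18.4% of aspartate transaminase UMIs in neutrophil-like cells. Mdh2 made up 62.8%, 60.3%, 54.9% and 57.5% of malate dehydrogenase UMIs in peribronchial fibroblast-like cells. Gpt made up 69.2%, 70.2%, 61.9% and 58.5% of alanine transaminase UMIs in general capillary-like cells. In these 3 both BPTES libraries were above both DMSO libraries. The 7 AT2 markers, from the class with the highest Gpt level, summed to 412, 313, 149 and 249.9 CPM in the general capillary-like cells, with 6 of 7 higher with BPTES and none called; their part in the Gpt share was not tested. Suclg2 made up 64.7%, 54.9%, 67.9% and 64.9% of the beta subunits in arterial endothelial-like cells, where BPTES was lower and the nearest libraries of the 2 groups almost met. Idh3b made up 40.5%, 39.4%, 52.8% and 50.0% of the NAD isocitrate dehydrogenase subunits in pericyte-like cells, lower in both BPTES libraries. The largest such differences of Idh1 against Idh2 and of the malic enzymes stand beside those genes.

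The smallest adjusted p was that of Idh1 in interstitial macrophage-like cells. Its level was 76.0, 81.8, 43.8 and 47.8 CPM, from 1019, 1158, 276 and 415 UMIs. Both BPTES libraries lay above both DMSO libraries, by a log2 fold change of 0.78 (SE 0.10, edgeR adjusted p = 0.0696, where 0.0984% of genes in that class were called). DESeq2 gave an adjusted p of 0.00117, and 6 of the 12 alternatives tried called it, among them the 4 with other cell filters or clusterings. Over all 12 the log2 fold change ran from 0.72 to 0.92 and the adjusted p from 0.00117 to 0.438. Idh2 in the same cells was 22.8, 24.5, 27.0 and 30.2 CPM. Its share of the pair was 23.0%, 23.1%, 38.1% and 38.7%, so that the 2 BPTES libraries were lower by 15.4 points. This was the largest difference without overlap. The Idh2 share did not overlap in 11 of 20 classes, 5 of them higher with BPTES.

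**Figure D4:**
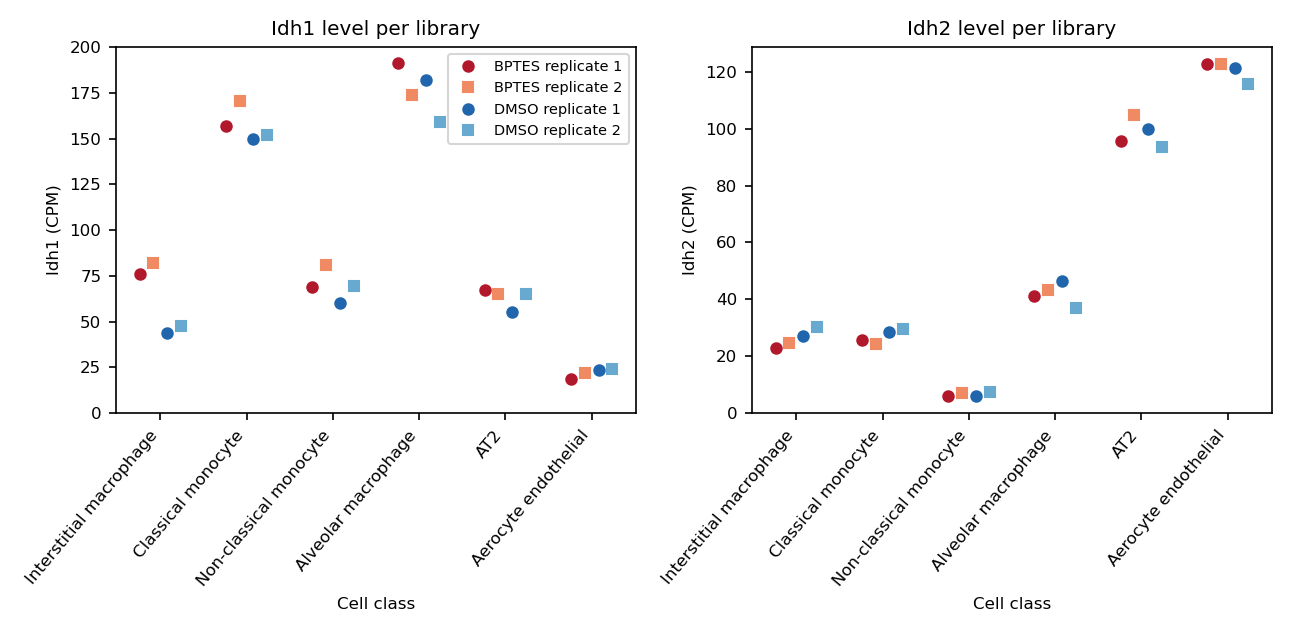
Points give the CPM of Idh1 (left) and Idh2 (right) in each library for 6 classes. In interstitial macrophage-like cells the 2 BPTES libraries sit at 76.0 and 81.8 for Idh1, above the DMSO libraries at 43.8 and 47.8, while in the other 5 classes the groups lie close together.

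The cells with an Idh1 UMI showed the same order. With each cell thinned to 5000 UMIs, 26.6% (95% exact interval 22.3 to 31.4) and 30.2% (25.9 to 34.7) of interstitial macrophage-like cells held one with BPTES, against 15.1% (10.2 to 21.0) and 20.6% (15.9 to 25.9) with DMSO. Thinning left out 19, 14, 9 and 4 shallower cells, and the intervals cover counting error only. In T-like cells, which have the lowest Idh1 level, the thinned share was 2.34%, 1.93%, 1.63% and 1.76%. Without thinning the shares were 62.1%, 65.6%, 52.3% and 52.9%, and 3.01% to 5.80% in T-like cells. Median depth was 28614.5 to 31488.5 UMIs in the former class and 15545 to 16244 in the latter.

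Other genes moved with Idh1 in that class, which held 398, 445, 195 and 276 cells, or 2.63%, 2.87%, 1.35% and 1.46% of those kept. It held 1314 cells in all in the main clustering, but 788 to 892 with the other cell filters and clusterings. The 7 interstitial macrophage markers summed to 7675, 8478, 5627 and 8691 CPM, with none called. The 7 classical monocyte markers summed to 1965, 2208, 1274 and 1429 CPM; that sum follows Fn1, fibronectin, at 1303, 1533, 524 and 539.8 (edgeR adjusted p = 0.0343), and their median log2 fold change was -0.24. Among the alveolar macrophage markers, the scavenger receptor Marco was 0.224, 0.141, 18.3 and 12.7 CPM (edgeR adjusted p = 0.0208), and the whole list summed to 613, 612, 425 and 730.1. The 7 AT2 markers, led by the surfactant gene Sftpc, summed to 738, 219, 100.3 and 191 CPM; 6 of 7 were higher with BPTES and none was called. No marker of these 4 lists was without UMIs in all libraries, and the alveolar macrophage marker Krt79 had none in the DMSO libraries. The part of these shifts in the Idh1 difference was not tested.

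Whether the effect of BPTES depended on class was tested in 1 fit over the 12 classes with library as a term. That fit takes 1 spread per gene over all 12 classes, which come from the same 4 libraries. Its p-values therefore do not measure the spread between libraries within a single class. In that fit Idh1 (edgeR adjusted p = 0.0151) and Mdh2 (adjusted p = 0.0474) were called among the 31 genes, where 4.73% of 17120 genes were. For Idh1 the interstitial macrophage-like effect exceeded the mean of the other classes by 0.77 on the log2 scale (SE 0.13, edgeR adjusted p = 0.00236, where 0.824% of genes were called for that class). In the other 11 classes the log2 fold change of Idh1 lay between -0.31 in lymphatic endothelial-like and 0.55 in T-like cells, none called. The class dependence of Idh1 was no longer called without BPTES replicate 2 (adjusted p = 0.226), DMSO replicate 1 (0.353) or DMSO replicate 2 (0.150).

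Mdh2 gave a weaker result. In interstitial macrophage-like cells it was 120.4, 128, 188 and 141 CPM, where DMSO replicate 1 stands above the other 3 libraries, with a log2 fold change of -0.41 (SE 0.15, edgeR adjusted p = 0.435). In the joint fit, relative to the mean of the other classes, the difference was -0.43 (SE 0.11, edgeR adjusted p = 0.0380). That SE rests on the spread over all classes of the fit, not on this class alone. It was 75.7, 79.5, 61.1 and 69.7 CPM in alveolar fibroblast-like cells and 94.8, 94.4, 82.9 and 83.8 in general capillary-like cells, higher in both BPTES libraries by 0.25 (adjusted p = 0.162) and 0.18 (adjusted p = 0.190). In classical monocyte-like cells it was 114, 118, 136 and 128 CPM, a log2 fold change of -0.18 (adjusted p = 0.307). The class dependence of Mdh2 was called in 2 of 10 alternatives, and its sign in interstitial macrophage-like cells turned under 4 settings of the cell filter or clustering.

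Me3 was lower with BPTES in general capillary-like cells without passing the adjusted threshold. Its level was 38.5, 29.8, 64.8 and 50.8 CPM, and both BPTES libraries lay below both DMSO libraries (log2 fold change -0.76, SE 0.15, edgeR adjusted p = 0.125, DESeq2 adjusted p = 0.000449). The 3 clusters of this class showed the same order: 39.95, 29.0, 70.1 and 53.0 CPM in the largest, 36.8, 34.6, 55.8 and 49.8 in the second and 25.5, 19.2, 40.5 and 40.4 in the smallest. The smallest, with the lowest Me3 and the highest Mdh2 and Me1 levels of the 3 in every library, held 4.94%, 10.8%, 3.37% and 4.08% of the class, more in both BPTES libraries. In the same cells the 7 venous markers summed to 215, 229, 375 and 315 CPM, a sum led by Vwf, von Willebrand factor, at 180.5, 178, 343 and 284 CPM. Of those markers 5 were higher with BPTES, none was called and none was without UMIs; their part in the Me3 difference was not tested. With all libraries, DESeq2, the fit without the filter on low counts and the replicate block called Me3 there. In that class they called 4.55%, 7.98% and 9.54% of all genes, where the main fit called 0%. RLE scaling and the other cell filters and clusterings did not call it. Over the 12 alternatives tried, the log2 fold change ran from -0.95, without BPTES replicate 1, to -0.58.

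Elsewhere Me3 was lower in alveolar fibroblast-like cells, at 6.51, 5.23, 9.66 and 8.33 CPM (log2 fold change -0.62, SE 0.15, edgeR adjusted p = 0.108, DESeq2 adjusted p = 0.0259). These levels are low beside the mean of 147 CPM in venous endothelial-like cells. In the larger of the 2 clusters of alveolar fibroblast-like cells Me3 was 6.69, 6.73, 10.7 and 9.24 CPM, and in the smaller 6.21, 3.14, 8.22 and 6.40. The smaller held 38.7%, 40.04%, 26.3% and 30.4% of the class, and its part in the Me3 difference was not tested. In arterial endothelial-like cells, which were not among the 12 classes tested, the Me3 share of malic enzyme UMIs was 33.04%, 18.1%, 47.8% and 43.7%. In the 2 classes with the most Me3 the groups overlapped: the log2 fold change was -0.16 in venous (adjusted p = 0.592) and -0.05 in lymphatic endothelial-like cells (adjusted p = 0.923). Whether the effect on Me3 depends on class was not shown (joint edgeR adjusted p = 0.221). Single libraries stood out here too. Of the 9 classes with at least 40 Me3 UMIs, BPTES replicate 2 had the lowest level in 6 and DMSO replicate 1 the highest in 6. General capillary-like and alveolar fibroblast-like cells had both of these libraries at the ends.

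Me1 was highest in 1 library across most classes. BPTES replicate 2 had the highest Me1 level of the 4 libraries in 14 of the 15 classes with at least 40 Me1 UMIs, with a median of 1.51 times the mean of the other 3. As a share of malic enzyme UMIs, Me1 did not overlap between the groups in 12 of 22 classes, 11 of them higher with BPTES, and Me3 in 10 of 22, 0 of them higher. Among all gene and class pairs tested for their levels, 45.4% did not overlap. A higher share of Me1 lowers the share left to Me2 and Me3, so the 2 counts are not independent. In general capillary-like cells Me1 was 2.61, 9.74, 2.48 and 3.35 CPM, and the sum of the AT2 markers there was higher in both BPTES libraries than in both DMSO libraries; their part in the Me1 difference was not tested. In arterial-like cells its share of malic enzyme UMIs was 49.1%, 69.0%, 39.1% and 37.7%. In AT2-like cells, its main site, the log2 fold change was 0.13 (SE 0.08, edgeR adjusted p = 0.481). The exception was lymphatic endothelial-like cells, with 3.52, 2.82, 11.3 and 8.57 CPM from 18, 10, 48 and 33 UMIs (log2 fold change -1.62, SE 0.37, edgeR adjusted p = 0.0868). Those levels average 2.71% of the AT2-like level. The AT2 markers in lymphatic endothelial-like cells summed to 525, 387, 243 and 398 CPM, and their part in the Me1 difference was not tested.

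**Figure D5:**
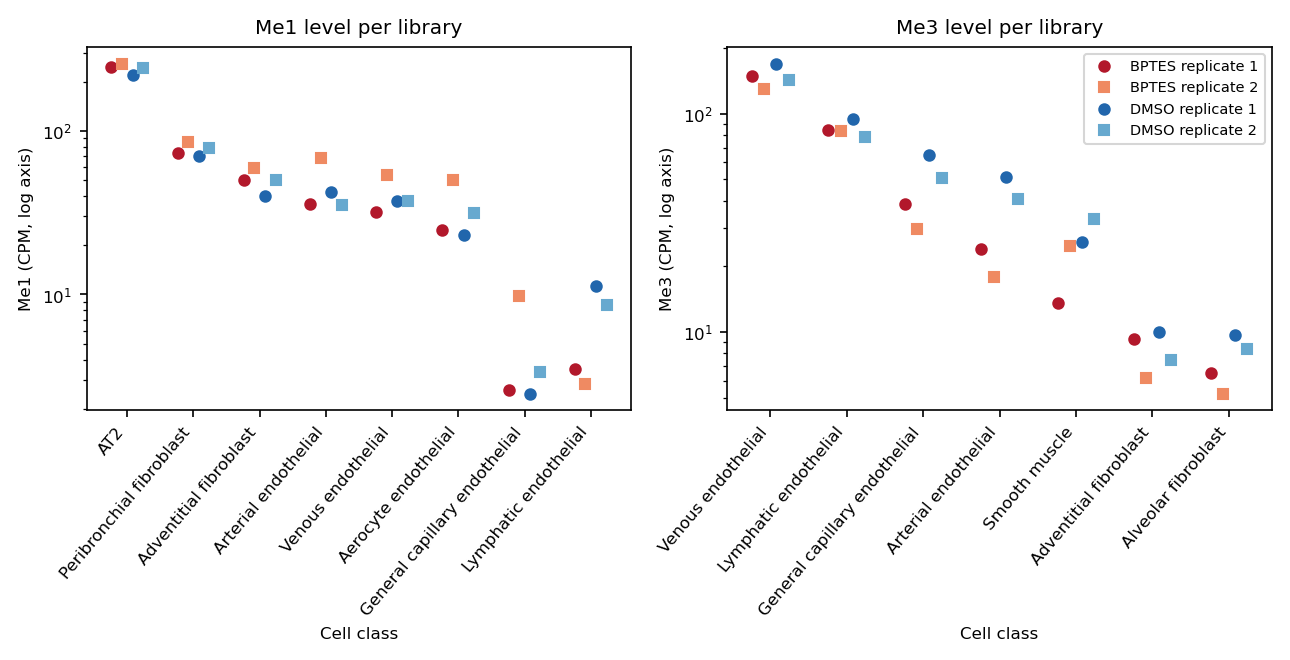
Points give the CPM of Me1 (left) and Me3 (right) in each library on a log axis, with classes on the other axis. BPTES replicate 2 is the top Me1 point in 7 of the 8 classes shown, lymphatic endothelial being the exception, and both BPTES points of Me3 lie below the DMSO points in general capillary and alveolar fibroblast cells.

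Classical monocyte-like cells had the most enzyme genes with an unadjusted p under 0.05, all of them lower with BPTES. Of 29 genes tested, 24 had a lower mean with BPTES, and the median log2 fold change was -0.14 against -0.004 over all 12302 genes tested, of which 50.7% were lower. At an unadjusted p under 0.05, 9 of the 29 were lower and 0 higher, where 7.56% of all genes were lower and 8.32% higher. None passed adjustment (smallest adjusted p 0.157). These genes share the 4 libraries and are not independent.

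The 9 genes were Got2, Suclg1, Fh1, Sdhb, Sdhd, Idh2, Idh3a, Mdh1 and Mdh2. Got2 was 58.8, 56.5, 72.0 and 69.3 CPM (log2 fold change -0.29, SE 0.08, edgeR adjusted p = 0.157). Suclg1 was 44.1, 42.3, 53.7 and 52.1 CPM, a log2 fold change of -0.29. Fh1 was 29.6, 23.5, 38.5 and 32.9 CPM, a log2 fold change of -0.43, the lowest of the 9. In all 3 the DMSO libraries lay above the BPTES libraries. Sdhb was 144, 135, 159.9 and 159 CPM, and Sdhd was 75.5, 75.2, 91.3 and 83.5 CPM. Idh2 was 25.5, 24.3, 28.6 and 29.6 CPM, and Idh3a was 12.96, 11.9, 15.4 and 16.9 CPM. Mdh1 was 59.7, 61.1, 66.4 and 72.3 CPM, so that these genes too had no overlap between groups. The 9 genes were picked by their unadjusted p, and 45.4% of all gene and class pairs had no overlap, so this adds no support. Idh1, whose level is high in these cells, went the other way with a log2 fold change of 0.12 (adjusted p = 0.499). Median depth of these cells was 25625, 25164, 28951 and 27202 UMIs and median mitochondrial share 1.39%, 1.37%, 1.47% and 1.45%, both lower in the BPTES libraries. The interstitial macrophage markers summed to 2117, 2214, 1958 and 1690 CPM in them, yet only 1 of 7 was higher with BPTES and the median log2 fold change was -0.72 (1 of 7 called). The neutrophil markers summed to 194, 168, 195 and 322 CPM, with 1 of 7 higher with BPTES, none called and a median log2 fold change of -0.87. The part of both lists in the result was not tested.

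Alveolar fibroblast-like cells, the largest class, had a higher mean with BPTES for 26 of 31 genes, but by little: the median log2 fold change was 0.07 against -0.01 over all 17026 genes tested, of which 52.1% were lower. Median depth of these cells was 22019.5, 22489.5, 19801 and 20530.5 UMIs and median mitochondrial share 1.41%, 1.48%, 1.22% and 1.22%, both higher in the BPTES libraries. Of the 2 clusters in this class, the one with the higher Mdh2 level held 38.7%, 40.04%, 26.3% and 30.4% of its cells. The 7 adventitial fibroblast markers summed to 431, 516, 368 and 396 CPM, with 6 of 7 higher with BPTES, a median log2 fold change of 0.28, and none called or without UMIs. The part of these shifts in the result was not tested.

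Neutrophil-like cells, whose levels are low, had more genes higher than lower with BPTES. Of 25 genes tested, 18 had a higher mean with BPTES, and the median log2 fold change was 0.16 against 0.004 for all 9199 genes. At an unadjusted p under 0.05, 4 were higher and 0 lower, where 6.15% of all genes were higher and 8.74% lower. Median depth of these cells was 8689, 8905, 9556 and 9105.5 UMIs, lower in both BPTES libraries, and its part in the result was not tested. Dlat was 15.98, 18.2, 10.6 and 9.91 CPM (log2 fold change 0.74, SE 0.22, edgeR adjusted p = 0.151). Got1 was 18.4, 15.7, 11.0 and 11.5 CPM (log2 fold change 0.60, adjusted p = 0.236). Cs and Ogdh were the other two. In AT2-like cells, fitted as an addition made after the data had been seen, none of 30 genes was called, where 0.262% of all genes were. The nearest was Fh1, at 54.0, 58.4, 44.2 and 42.3 CPM (log2 fold change 0.38, SE 0.09, edgeR adjusted p = 0.0953).

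In the sum of all kept cells none of the 31 genes was called by edgeR, where 0% of 21458 genes were, and 7 had an unadjusted p under 0.05, where 17.6% of all genes did. DESeq2 called 3, Gpt, Me1 and Me3, and 7.01% of all genes it tested. In such a sum, more cells of a type and more RNA per cell cannot be told apart. Gpt was 5.36, 4.91, 2.73 and 3.36 CPM (log2 fold change 0.76, SE 0.15, edgeR adjusted p = 0.192). AT2-like cells, its main site, were 2.61%, 2.54%, 0.805% and 1.29% of the kept cells and held 68.3%, 64.2%, 37.7% and 50.6% of the Gpt UMIs. Outside AT2-like cells, as unscaled CPM of the remaining cells, Gpt was 1.81, 1.83, 1.78 and 1.74, a smaller difference with both BPTES libraries still above both DMSO libraries.

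Me1 in all kept cells was 29.9, 39.1, 19.9995 and 23.1 CPM (log2 fold change 0.68, SE 0.15, edgeR adjusted p = 0.200). Outside AT2-like cells it was 14.2, 23.3, 15.8 and 15.8 CPM, where only BPTES replicate 2 stood above the rest. Me3 was 16.01, 11.5, 22.3 and 19.99 CPM (log2 fold change -0.62, SE 0.17, edgeR adjusted p = 0.234). Its level outside AT2-like cells, 17.0, 11.9, 23.4 and 20.9 CPM, kept both BPTES libraries below both DMSO libraries.

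The 35 other genes of the pathway that were listed comprise regulators of pyruvate dehydrogenase, mitochondrial carriers, enzymes of entry and exit, and assembly factors. None was called in a class, 0 of 349 tested gene and class pairs, where 0.181% of all pairs were; 37 pairs had an unadjusted p under 0.05, where 13.2% of all pairs did. DESeq2 called 2, Pdp1 in alveolar fibroblast-like and Glul in classical monocyte-like cells, where it called 1.83% of all pairs. Of the genes of these 2 classes it called 6.51% and 2.27%. In the sum of all kept cells edgeR called none of the 34 of these genes it tested. At an unadjusted p under 0.05, 4 were higher and 3 lower, where 8.90% of all genes were higher and 8.69% lower. DESeq2, which called 7.01% of all genes there, called 3 mitochondrial carriers: the dicarboxylate carrier Slc25a10 (adjusted p = 0.00176), the aspartate-glutamate carrier Slc25a13 (0.0239) and the glutamate carrier Slc25a18 (0.0481). Slc25a10 was 6.82, 6.97, 4.62 and 5.13 CPM and Slc25a13 was 8.87, 10.9, 6.93 and 7.26 CPM, both higher in the BPTES libraries. Slc25a18 was 1.10, 1.24, 1.77 and 1.75 CPM, lower in both.

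Glul, glutamine synthetase, which makes glutamine from glutamate and ammonia, was 103, 102, 68.6 and 79.2 CPM in classical monocyte-like cells (log2 fold change 0.47, SE 0.09, edgeR adjusted p = 0.0799, DESeq2 adjusted p = 0.0101). Both BPTES libraries lay above both DMSO libraries. Pdp1, the phosphatase that activates pyruvate dehydrogenase, was the 1 listed gene outside the 31 that was called in the joint fit (edgeR adjusted p = 0.0139), and 6 of 10 alternatives kept the call. The other 4 did not: the adjusted p was 0.444 and 0.685 when BPTES replicate 1 or replicate 2 was dropped, 0.174 when DMSO replicate 1 was dropped, and 0.0985 at clustering resolution 2. In alveolar fibroblast-like cells it was 17.9, 16.4, 27.2 and 21.3 CPM, a log2 fold change of -0.50 (SE 0.12, adjusted p = 0.112). In classical monocyte-like cells it was 6.40, 5.31, 3.55 and 3.71 CPM (log2 fold change 0.68, SE 0.21, adjusted p = 0.203), so the groups were ordered oppositely in these 2 classes.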

How the data were processed

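The deposited values are UMI counts per gene and cell barcode from 4 lung libraries, which the authors made from 10x Genomics GEM-X 3′ v4 libraries with Cell Ranger 8.0.1 and genome mm10, per the submitters' processing notes; other steps are not given in the sources used here. Barcodes with at least 500 genes, 1000 UMIs and at most 10% mitochondrial UMIs were kept, and doublets were removed by simulation at an assumed 0.4% per 1000 cells. Cells were clustered by the Leiden method (igraph 0.11.9, resolution 1, 15 neighbours) on 40 components of 2000 variable genes. A cluster was named from listed markers with a score of at least 1.5 and at least 3 markers detected. It was left unnamed where its leading genes pointed to another class, a rule added after the clusters were seen. Clusters of low depth with no marker of the class among their leading genes were also left unnamed. Among these were clusters of 2634 and 719 cells that scored best for alveolar fibroblasts.

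UMIs were summed per library and class and tested with edgeR 4.0.16 (quasi-likelihood, TMM scaling, its filter on low counts, Benjamini-Hochberg adjustment over all genes of a fit, threshold 0.05). Class dependence was tested in 1 joint fit with library as a term. Standard errors were taken from the fold change and its F statistic. DESeq2 1.42.0, other scaling, no filter, a replicate block, leaving out each library, and other cell filters and clusterings were alternatives. Scripts were tested on simulated data. Members, gene lists and markers were chosen with earlier results of these data known. Every one of the 31 members is described, with library values in the class of its highest level and wherever a test or setting called it; of the pathway list, the genes called in a class by DESeq2 or in the joint fit are named, and 1 gene is not reported here. The carriers Slc25a10, Slc25a13 and Slc25a18 and the markers Fn1, Marco, Vwf and Sftpc were named after their values were seen. Symbols were read from the files, and RefSeq promoter windows of GRCm38.p6 matched 27 of the 31 genes.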

Additional observations from a re-analysis of the deposited data

Results flagged for a closer look

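A difference between classes marked 3 results: the effect of BPTES differed between the 12 classes in the joint edgeR fit. The edgeR adjusted p was 0.0151 for Idh1, 0.0139 for the phosphatase Pdp1 and 0.0474 for Mdh2, where 4.73% of 17120 genes passed. These are 3 of the 64 members and pathway genes in that fit, a share close to that of all genes. Of 10 alternatives, 7 kept the call for Idh1, 6 for Pdp1 and 2 for Mdh2; the adjusted p reached 0.353, 0.685 and 0.714, each with 1 library left out. For Idh1 the class that stood apart was interstitial macrophage-like cells, with 76.0, 81.8, 43.8 and 47.8 CPM. For Mdh2 it was the same class in the other direction, with 120.4, 128, 188 and 141 CPM, where DMSO replicate 1 stands above the rest. The fit of that class alone gave an edgeR adjusted p of 0.435 for Mdh2. Its sign there turned under 4 settings of the cell filter or clustering. For Pdp1 no single class passed against the mean of the others; the smallest adjusted p was 0.0610, in classical monocyte-like cells.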

How the results depend on the processing

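No enzyme gene was called in a class by edgeR. The count was 3 with DESeq2 and 6 without the filter on low counts, settings that called 1.83% and 3.1% of all gene and class pairs. It was 1 with a replicate block (Me3 in general capillary-like cells, edgeR adjusted p = 0.00207). The block called 1.54% of all pairs but 9.54% of the genes of that class, where the main fit called 0%. The count of enzyme genes called changed under other settings too. It was 1, Idh1 in interstitial macrophage-like cells, with a mitochondrial limit of 5% (edgeR adjusted p = 0.0349), with doublets kept (0.0471), at clustering resolution 2 (0.0297) and with another clustering seed (0.0251). These settings called 0.0716% to 0.305% of all pairs. Of the genes of that class they called 0.215% to 0.615%, where the main fit called 0.0984%. It ran from 0 to 7 when 1 library was left out, 7 without BPTES replicate 1, where 2.55% of all pairs were called. For the 35 other pathway genes the count of 0 became 2 with DESeq2, 7 without the filter, 1 with the block and 1 at resolution 2, and it also moved when 1 library was left out. In all kept cells 0 became 3 with DESeq2. The 2 genes whose effect differed between classes became 1 with RLE scaling, 5 without the filter, 1 with doublets kept and 3 at resolution 2. That count also moved when 1 library was left out. At the 5% limit and with another seed the 2 genes were Idh1 and Got2, not Mdh2. The share of all genes called in these other joint fits is not given here, so the counts cannot be set against it. Mdh2 in interstitial macrophage-like cells changed sign to 0.030 with the mitochondrial limit of 5%, 0.037 with doublets kept, 0.00597 at resolution 2 and 0.010 with another seed. In turn, these settings gave that name to 788, 892, 825 and 828 cells, against 1314 in the main clustering. The leading genes of the main cluster included Cd209a, a listed marker of conventional dendritic cells. The Idh1 calls under these settings are for the smaller class. The cause of the sign change was not tested. The highest class of a gene was the same for 26 to 31 of 31 genes over these settings. Replicate numbers share only a number: deviations of same-numbered libraries correlated between -0.11 and 0.05. Over all genes the block moved the count of pairs called in the 12 classes from 277 to 2355. It was not run in the joint fit. With 2 libraries a group, an exact permutation test could not go below 0.333.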
